A study of Mus musculus with 12 samples.

Results

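The genes described here are Myc and 48 genes of ribosome biogenesis and of the polyamine and pyrimidine syntheses that supply growing cells. They were taken by mouse gene symbol, matched through Entrez IDs, and all 49 were found among the 9842 genes of the deposited expression table. MYC is a transcription factor that binds the E-box motif and drives the genes cells need to grow, among which those of ribosome production are a large class. In the nucleolus, RNA polymerase I transcribes the ribosomal RNA precursor, small nucleolar ribonucleoproteins (snoRNPs) modify it, and successive assembly factors cut and fold it into the small and large ribosomal subunits. In B cells, MYC is induced on activation and is tied to growth in cell mass before division.

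The 12 RNA libraries came from B cells of female C57BL/6J mice in 4 groups of 3: eMZB_KO, eMZB_WT, TrB_KO and TrB_WT. KO libraries are labelled as LSD1 knockout and WT libraries as wild type (LSD1, encoded by Kdm1a, is a histone demethylase); what drove the deletion and the age of the mice are not stated. TrB are transitional B cells of the spleen, immature cells newly arrived from the bone marrow, sorted without stimulation as Thy1.1- F4/80- CD11b- B220+ CD93+. The eMZB libraries hold marginal zone B cells made ex vivo: enriched splenic transitional cells were kept for 3 days with the survival cytokine BAFF and the Notch ligand DL1, then sorted with the same negative markers, B220+ and CD21+ CD1d+. Cell type, culture, stimulation and sorting gate therefore change together between eMZB and TrB and cannot be told apart. Each library was made from 2000 cells, and the labels do not say whether replicates came from separate animals, so p-values measure a spread between libraries that may be technical. Values below are FPKM (reads per kilobase of gene and per M reads, M for mega) divided by a scaling factor per library, which makes them comparable between genes and libraries, unless given as deposited.

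Each library had 7.24 to 19.35 M reads. Genes of the table held 61.6% of the reads in TrB_KO replicate 3, against 16.7% to 20.9% in the other TrB libraries and 27.8% to 41.7% in the eMZB libraries, so TrB_KO replicate 3 stood apart, and counts are also given without it. Among the other libraries that share was higher in eMZB than in TrB, and its part in the cell type results was not tested; total reads overlapped between the cell types. Kdm1a had 2.63, 2.51 and 2.64 FPKM in the eMZB_KO libraries, against 7.45, 8.55 and 4.63 in those labelled eMZB_WT. It had 3.31, 2.54 and 2.96 FPKM in the TrB_KO libraries, against 8.45, 7.85 and 3.44 in those labelled TrB_WT. The libraries labelled eMZB_WT replicate 3 and TrB_WT replicate 3 were the lowest of their groups in the targeted gene, the TrB_WT one close to the highest TrB_KO library (3.31 FPKM in TrB_KO replicate 1, against 3.44 FPKM), and counts are also given without both of them. Kdm1a itself did not pass the test in eMZB_KO against eMZB_WT (log2 difference -1.10 ± 0.26, SE; limma adjusted p = 0.149) or in TrB_KO against TrB_WT (-0.87 ± 0.26; 0.249). The whole-gene values can include exons outside the deleted part of Kdm1a.

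Promoters of 42 of the 49 members were in the RefSeq table (build GRCm38.p6, 250 bases before to 50 bases after the transcript start), and 9 of the 42 (21.4%) held the E-box CACGTG, the palindromic motif that MYC binds. A gene was counted if any of its promoters held the motif. The same letters stood in 960 of 7831 genes of the expression table that had a promoter (12.3%). They stood in 2187 of 27025 genes of the whole RefSeq table (8.1%). The variants CACGCG or CGCGTG, which are each other's reverse complement, stood in 15 of the 42 (35.7%), against 20.4% of the expression table. Among members that rose in eMZB_KO against TrB_KO, described below, 5 of the 23 with a promoter (21.7%) held CACGTG. Among the other members 4 of the 19 with a promoter (21.1%) did. The 5 promoters of members that rose and hold the motif are shown because they carry the letters MYC is known to read; capitals mark CACGTG, all are on the + strand, and the sequences are credited to RefSeq. A match is a description of these letters and not a measured binding site. Counted from the transcript start as base 1, the first letter of the motif lay at base 16 in Utp4 (chr8:106893390-106893689), 25 in Tsr1 (chr11:74897830-74898129), 18 in Wdr43 (chr17:71615965-71616264) and 41 in Mybbp1a (chr11:72441077-72441376), and 60 bases before the start in Nop2 (chr6:125131633-125131932).
Utp4: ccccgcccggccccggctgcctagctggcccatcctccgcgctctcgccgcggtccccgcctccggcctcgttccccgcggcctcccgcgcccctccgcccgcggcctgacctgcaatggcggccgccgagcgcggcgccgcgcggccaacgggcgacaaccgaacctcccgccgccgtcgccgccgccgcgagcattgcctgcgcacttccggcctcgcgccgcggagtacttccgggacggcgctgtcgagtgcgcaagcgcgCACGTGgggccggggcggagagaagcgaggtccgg
Tsr1: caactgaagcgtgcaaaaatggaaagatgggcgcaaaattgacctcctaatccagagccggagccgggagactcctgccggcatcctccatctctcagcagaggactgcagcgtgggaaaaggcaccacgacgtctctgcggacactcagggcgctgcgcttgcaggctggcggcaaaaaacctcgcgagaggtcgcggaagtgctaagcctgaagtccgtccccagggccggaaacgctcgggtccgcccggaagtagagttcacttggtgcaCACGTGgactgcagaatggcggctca
Nop2: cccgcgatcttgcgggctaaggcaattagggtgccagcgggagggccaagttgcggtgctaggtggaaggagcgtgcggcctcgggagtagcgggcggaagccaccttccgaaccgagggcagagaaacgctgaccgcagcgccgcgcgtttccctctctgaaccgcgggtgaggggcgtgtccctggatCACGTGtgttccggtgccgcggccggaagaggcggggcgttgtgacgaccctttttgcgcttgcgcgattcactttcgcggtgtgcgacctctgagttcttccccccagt
Wdr43: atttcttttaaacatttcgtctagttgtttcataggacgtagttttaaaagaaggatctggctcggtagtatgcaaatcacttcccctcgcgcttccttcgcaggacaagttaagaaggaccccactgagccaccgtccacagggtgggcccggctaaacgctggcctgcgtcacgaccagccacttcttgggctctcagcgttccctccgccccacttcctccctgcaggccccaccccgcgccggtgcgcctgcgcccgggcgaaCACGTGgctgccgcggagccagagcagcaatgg
Mybbp1a: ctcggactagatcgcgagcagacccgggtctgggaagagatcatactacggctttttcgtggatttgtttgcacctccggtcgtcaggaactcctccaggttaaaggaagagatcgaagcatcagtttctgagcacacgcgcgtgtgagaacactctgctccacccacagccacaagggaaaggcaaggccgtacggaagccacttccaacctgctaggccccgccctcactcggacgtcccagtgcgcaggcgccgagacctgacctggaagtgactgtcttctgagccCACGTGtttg

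By their sum, the members were higher in eMZB than in TrB libraries. Their summed level was 645, 615 and 634 FPKM in eMZB_KO libraries (631 ± 15.0, SD, n = 3) and 548, 546 and 562 in eMZB_WT libraries (552 ± 8.47, SD, n = 3). In TrB_KO libraries it was 422, 416 and 438 (425 ± 11, SD, n = 3), and in TrB_WT libraries 387, 397 and 418 (401 ± 15.7, SD, n = 3). All 6 eMZB libraries lay above all 6 TrB libraries, and all eMZB_KO libraries above all eMZB_WT libraries, while the highest TrB_WT library exceeded the lowest TrB_KO library. The sum was 1.48 times as high in eMZB_KO as in TrB_KO, 1.38 times in eMZB_WT as in TrB_WT, 1.14 times in eMZB_KO as in eMZB_WT and 1.06 times in TrB_KO as in TrB_WT. Without TrB_KO replicate 3 the first of these ratios was 1.51 and the last 1.05. A sum weighs abundant members most. The median level over members averaged 7.86 FPKM in eMZB_KO, 7.27 in eMZB_WT, 6.19 in TrB_KO and 5.89 in TrB_WT libraries. For this median the eMZB_KO (7.31 to 8.32) and eMZB_WT libraries (6.86 to 7.64) overlapped. In bulk samples fewer cells of a type and less RNA per cell cannot be told apart.

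**Figure D1:**
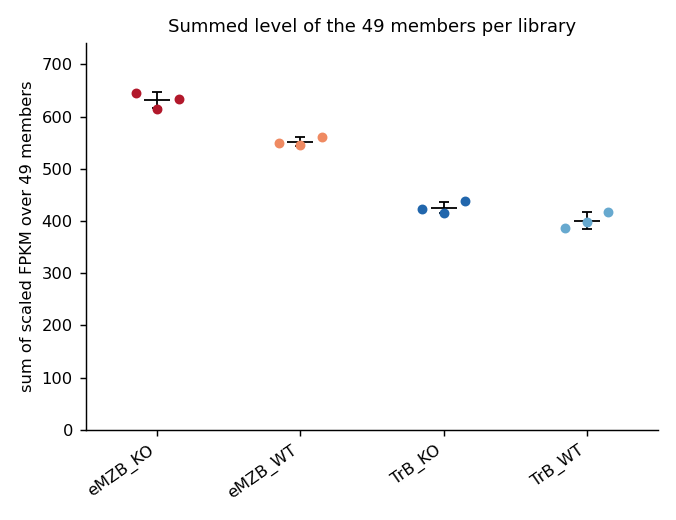
Sum of scaled FPKM over the 49 members (vertical axis) in each of the 12 libraries (points), by group, with the mean and SD of 3 libraries (bars). The eMZB_KO libraries lie between 615 and 645, the eMZB_WT libraries between 546 and 562, the TrB_KO libraries between 416 and 438 and the TrB_WT libraries between 387 and 418.

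Gene by gene, 28 of the 49 members rose in eMZB_KO against TrB_KO and 0 fell, where 14.2% of all 9842 genes were called higher; 22 rose in eMZB_WT against TrB_WT and 0 fell, where 14.7% were called higher (limma, Benjamini-Hochberg adjusted p under 0.05 over all genes). At an unadjusted p under 0.05 there were 35 members in KO (71.4%, against 37.7% of all genes) and 27 in WT cells (55.1%, against 39.4%), all higher. Voom called 30 in KO (61.2%, against 34.9% of all genes) and 18 in WT cells (36.7%, against 23.9%), all higher. Libraries did not overlap and eMZB was higher for 30 members in KO cells (22.7% of all genes, with 21.2% lower) and for 27 in WT cells (21.8%). The log2 change was above 0 for 46 members in KO (49.0% of all genes) and 41 in WT cells (49.8%). The median log2 change of the members was 0.42 in KO cells and 0.34 in WT cells, against -0.01 and -0.00 over all genes; these changes are on the log2(scaled FPKM + 1) scale, which understates those of low genes. The 2 comparisons share no library, but their calls come from the same fit of all 12 libraries, with a shared spread and scaling, and are not independent. In both, 19 members were called, 86.4% of those called in WT cells and 67.9% of those called in KO cells, and 18 were called in neither. The share of all genes called in both was not counted. Cad, Gar1 and Nip7 were called in WT cells alone, and Ddx21, Nob1, Nolc1, Polr1b, Rrp1b, Tsr1, Utp4, Wdr12 and Wdr75 in KO cells alone. For none of these 12 did the difference between the comparisons pass the test, since 0 members were called in the interaction (0.0102% of all genes).

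**Figure D2:**
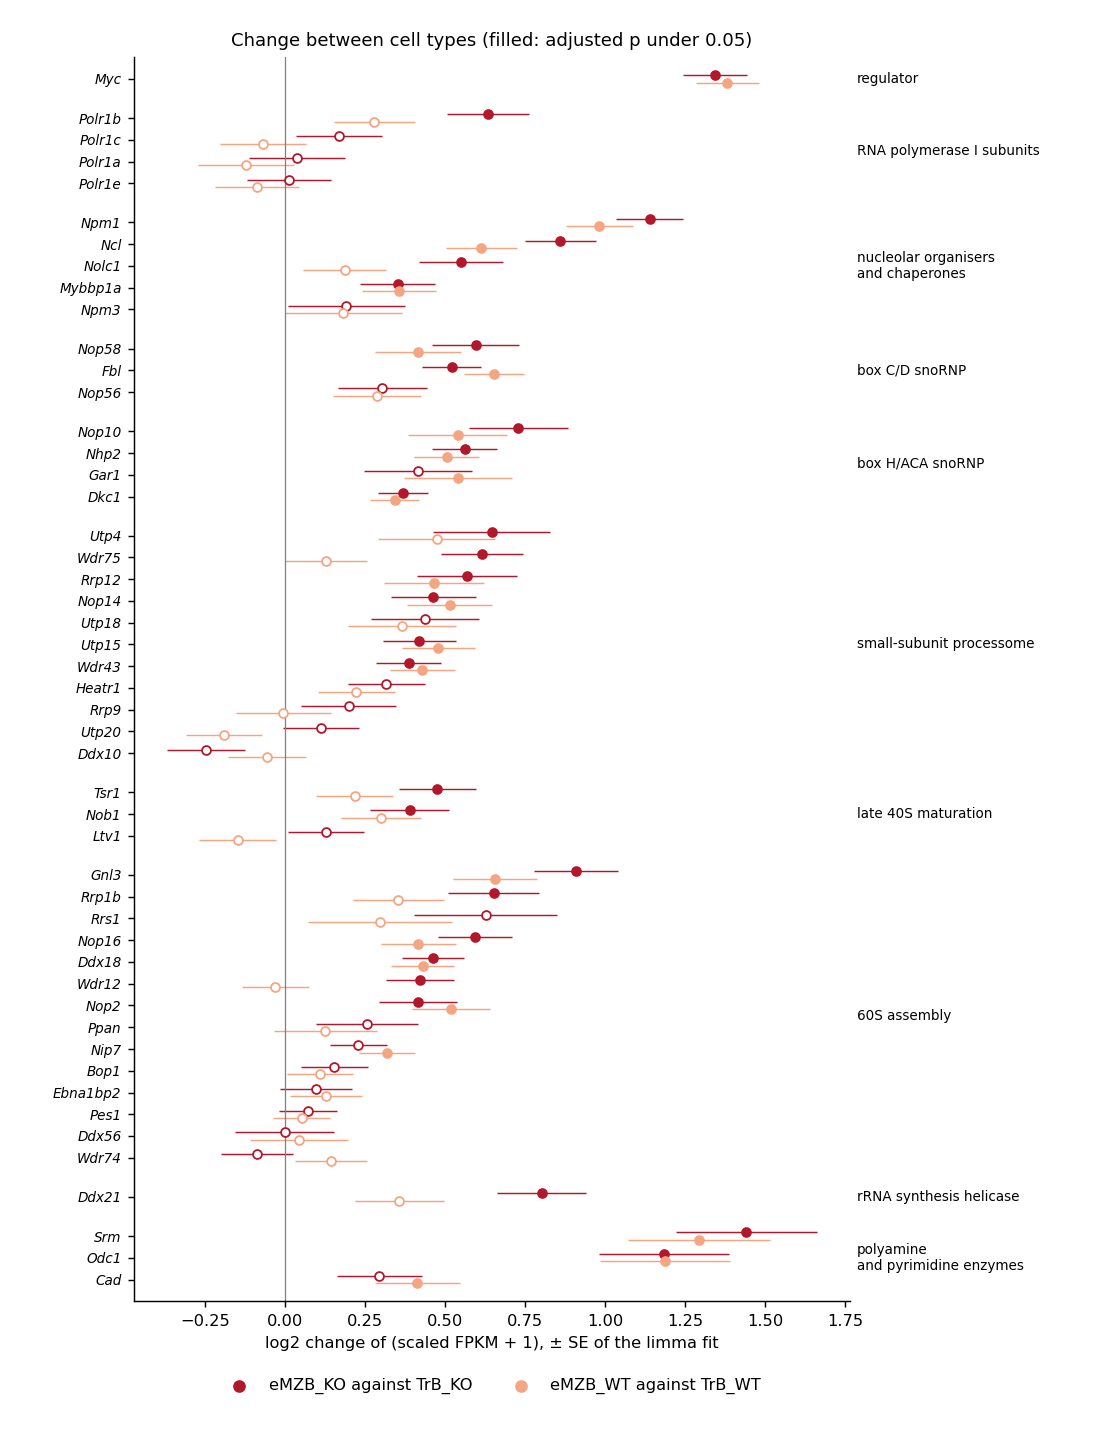
Log2 change of (scaled FPKM + 1) between cell types for the 49 members, grouped by role, with the standard error of the limma fit (bars); dark points compare eMZB_KO with TrB_KO and light points eMZB_WT with TrB_WT, and filled points passed adjusted p under 0.05. Srm, Myc, Odc1 and Npm1 lie farthest to the right in both, and the members below 0 are all unfilled.

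Without TrB_KO replicate 3, 32 members rose in eMZB_KO against TrB_KO, and 25 in eMZB_WT against TrB_WT, a comparison that does not hold it. Without the libraries labelled TrB_WT replicate 3 and eMZB_WT replicate 3, 14 members rose in eMZB_WT against TrB_WT and 29 in eMZB_KO against TrB_KO. On the FPKM as deposited, with no scaling, 20 members rose in WT cells but 4 in KO cells, and without TrB_KO replicate 3 all 49 rose in both, where 6497 of 9842 genes rose in KO and 7157 in WT cells. On that scale, with all 12 libraries, the median of all genes was itself shifted by 0.67 in WT cells and 0.23 in KO cells. Relative to it, the members' median was 0.38 in WT cells and 0.45 in KO cells (log2). The counts of 32, 25, 14, 29, 20 and 4 stand without the share of all genes called in the same setting. Of the calls, 19 of 28 in KO cells and 14 of 22 in WT cells were kept in all 12 fits that each left out 1 library. The other 9 in KO cells (Mybbp1a, Utp4, Utp15, Wdr43, Nop14, Rrp12, Nob1, Wdr12 and Nop2) reached adjusted p-values of 0.0514 to 0.164 in at least 1 such fit, and the other 8 in WT cells (Mybbp1a, Nop58, Gar1, Nop10, Rrp12, Nip7, Nop16 and Cad) 0.0571 to 0.156.

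Myc (Entrez 17869, chromosome 15, bases 61985341 to 61990361 of mm10), the regulator, stood highest in eMZB_KO and lowest in TrB_WT. It had 23.1, 21.3 and 26.2 FPKM in eMZB_KO libraries and 15.5, 15.9 and 17.7 in eMZB_WT libraries. In TrB_KO libraries it had 8.89, 8.01 and 9.0 FPKM, and in TrB_WT libraries 5.33, 6.25 and 5.42. No library of any group overlapped another group. Myc rose in eMZB_KO against TrB_KO by 1.34 ± 0.10 on the log2 scale (SE; limma adjusted p = 1.49e-06) and in eMZB_WT against TrB_WT by 1.38 ± 0.10 (adjusted p = 1.06e-06). Of all members Myc had the largest change in WT cells, and only Srm a larger one in KO cells.

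Every KO library had more Myc than every WT library of its cell type, with adjusted p-values close to the threshold. In TrB cells Myc rose by 0.53 ± 0.10 (log2, SE; limma adjusted p = 0.0392), to 8.63 ± 0.542 in TrB_KO, against 5.67 ± 0.509 in TrB_WT (SD, n = 3 each). It was the 1 member called of 49, where 0.386% of all genes were called higher. The call was lost in 10 of 12 fits that left out 1 library (adjusted p 0.0402 to 0.142, kept without TrB_WT replicate 2 or without eMZB_KO replicate 3), among them those without TrB_KO replicate 3 (0.134) and without TrB_WT replicate 3 (0.0742), and with the replicate number as a block (0.0619). In eMZB cells Myc had 23.5 ± 2.48 FPKM in eMZB_KO, against 16.4 ± 1.14 in eMZB_WT, a log2 difference of 0.49 ± 0.10 that missed the threshold (limma adjusted p = 0.0615). The difference between both responses was -0.04 ± 0.14 (log2, SE; 95% interval -0.34 to 0.27; limma adjusted p = 0.976), and its sign changed with the setting.

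**Figure D3:**
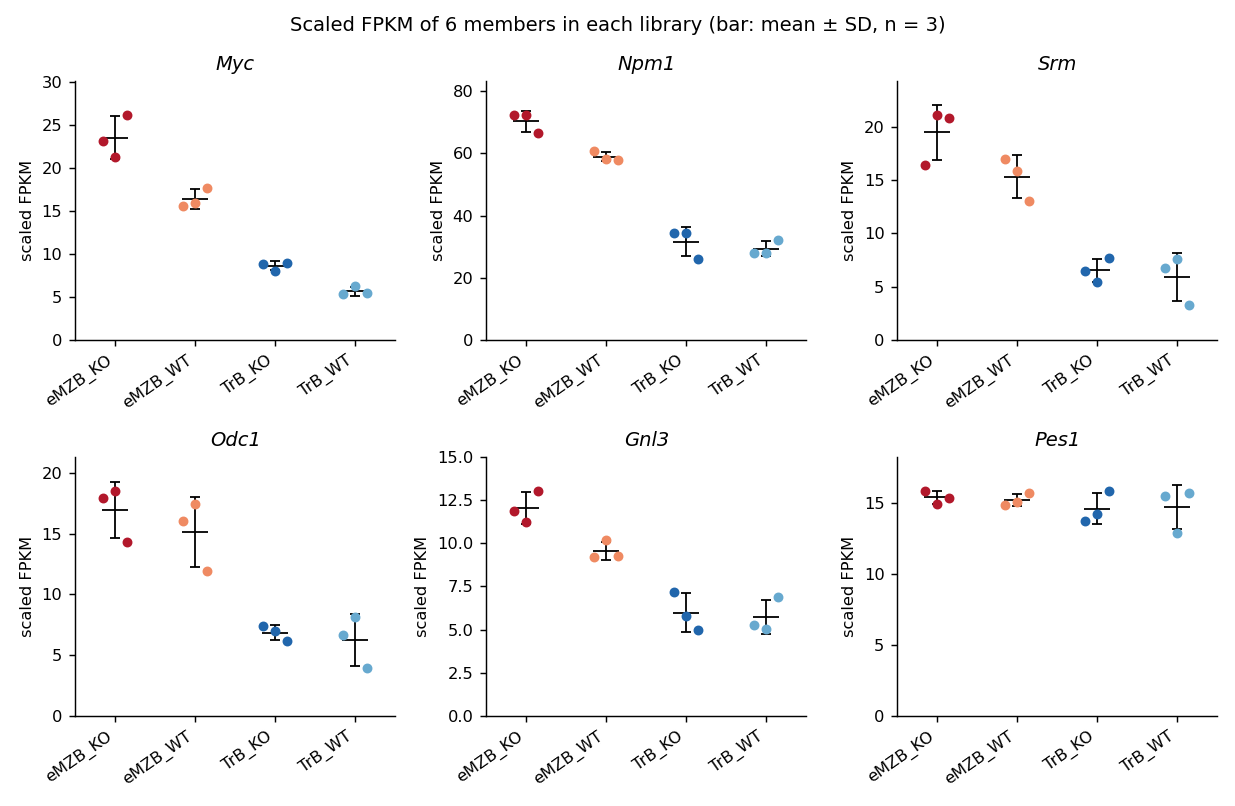
Scaled FPKM (vertical axis, from 0) of Myc, Npm1, Srm, Odc1, Gnl3 and Pes1 in each library (points) of the 4 groups, with mean and SD of 3 libraries (bars). The Myc groups are all separate, the eMZB libraries of Npm1, Srm, Odc1 and Gnl3 lie above all TrB libraries, and the groups of Pes1 overlap.

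Of the RNA polymerase I subunits, 1 of 4 rose in eMZB_KO against TrB_KO and 0 of 4 in eMZB_WT against TrB_WT. That gene was Polr1b, the second-largest subunit, with 5.89, 6.37 and 5.10 in eMZB_KO libraries, against 3.56, 3.62 and 2.93 in TrB_KO libraries (log2 change 0.63 ± 0.13, SE; limma adjusted p = 0.00295). The KO groups of Polr1b did not overlap. Polr1c, a subunit shared with RNA polymerase III, averaged 7.13 ± 0.505 FPKM in eMZB_KO and 6.26 ± 0.961 in TrB_KO (SD, n = 3 each). The catalytic subunit Polr1a averaged 4.69 ± 0.50 FPKM in eMZB_KO and 4.61 ± 1.20 in TrB_KO (SD, n = 3 each). Polr1a, Polr1c and Polr1e had log2 changes of -0.12, -0.07 and -0.09 in eMZB_WT against TrB_WT, none past the test.

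The nucleolar organisers and chaperones hold the most abundant member and the least abundant one: 4 of 5 rose in eMZB_KO against TrB_KO and 3 of 5 in eMZB_WT against TrB_WT. Npm1, nucleophosmin, a histone and ribosome chaperone that forms the outer layer of the nucleolus, had the highest level of all members. It had 72.3, 72.2 and 66.4 FPKM in eMZB_KO libraries and 60.7, 58.3 and 57.9 in eMZB_WT libraries. It had 34.3, 34.3 and 26.1 FPKM in TrB_KO libraries and 28.0, 27.9 and 32.3 in TrB_WT libraries. All eMZB libraries were above all TrB libraries, with a log2 change of 1.14 ± 0.10 in KO cells (SE; limma adjusted p = 7.29e-06) and 0.98 ± 0.10 in WT cells (2.35e-05). Ncl, nucleolin, an RNA-binding protein of ribosomal RNA transcription and processing, averaged 22.2 ± 1.58 FPKM in eMZB_KO and 11.8 ± 1.55 in TrB_KO, and 18.2 ± 1.17 in eMZB_WT and 11.6 ± 1.36 in TrB_WT (SD, n = 3 each); it rose by 0.86 and 0.61 (log2). Nolc1, a chaperone of snoRNPs, rose in KO cells by 0.55 (log2; 9.20 ± 1.51 in eMZB_KO and 5.94 ± 0.699 in TrB_KO). Mybbp1a, a nucleolar MYB-binding protein, rose by 0.35 in KO and 0.36 in WT cells (log2), but its libraries overlapped in KO cells and each call was lost in 6 of 12 fits that left out 1 library (adjusted p 0.00995 to 0.164 in KO cells, 0.0153 to 0.156 in WT cells), and with the replicate number as a block (0.0576 in KO and 0.0543 in WT cells). Npm3 was the least abundant member, at 1.35 on average and with 7 reads in 1 library.

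Of the box C/D snoRNP proteins, which add methyl groups to ribosomal RNA, 2 of 3 rose in each cell type comparison. The methyltransferase Fbl, fibrillarin, had 23.0, 23.5 and 25.8 FPKM in eMZB_KO libraries and 17.6, 14.3 and 17.7 in TrB_KO libraries. It had 22.0, 20.1 and 21.3 FPKM in eMZB_WT libraries and 12.5, 13.8 and 12.9 in TrB_WT libraries. Neither pair of groups overlapped, and Fbl rose by 0.52 ± 0.09 in KO cells (log2, SE; limma adjusted p = 0.00138) and 0.65 ± 0.09 in WT cells (2.59e-04). Nop58, a core scaffold protein of the particle, rose by 0.60 in KO and 0.42 in WT cells (log2; in WT cells adjusted p = 0.0557 with the block). Its partner Nop56 averaged 37.3 ± 2.19 FPKM in eMZB_KO and 30.6 ± 7.34 in TrB_KO, and 32.7 ± 2.41 in eMZB_WT and 26.6 ± 1.47 in TrB_WT (SD, n = 3 each), and did not pass the test.

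All 4 box H/ACA proteins, which convert uridines of ribosomal RNA to pseudouridine, rose in eMZB_WT against TrB_WT, and 3 of 4 in eMZB_KO against TrB_KO. Dkc1, dyskerin, the pseudouridine synthase, had 16.1, 16.7 and 18.3 FPKM in eMZB_KO libraries and 12.7, 13.6 and 12.6 in TrB_KO libraries. It had 15.7, 16.0 and 16.5 FPKM in eMZB_WT libraries and 12.2, 12.3 and 13.0 in TrB_WT libraries. The eMZB libraries did not overlap the TrB libraries of the same genotype, and the log2 change was 0.37 ± 0.08 in KO (SE; limma adjusted p = 0.00361) and 0.34 ± 0.08 in WT cells (0.00578). Nop10, the smallest protein of the particle, averaged 44.1 ± 1.31 FPKM in eMZB_KO and 26.6 ± 6.27 in TrB_KO, and 41.3 ± 2.78 in eMZB_WT and 28.4 ± 5.68 in TrB_WT (SD, n = 3 each). Nhp2 rose by 0.56 in KO and 0.51 in WT cells (log2). Gar1 rose in WT cells by 0.54 (log2), a call lost without TrB_WT replicate 2 or 3 and without eMZB_WT replicate 1 or 2 (limma adjusted p up to 0.121). It had only 28 to 47 reads in the TrB_WT libraries of that comparison.

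The small-subunit processome, the large particle that cuts the precursor to free small-subunit RNA, had 6 of 11 members that rose in eMZB_KO against TrB_KO and 4 of 11 that rose in eMZB_WT against TrB_WT. Wdr43, the most abundant, is a subunit of the module that meets the precursor as it is transcribed. It had 15.5, 14.2 and 16.2 FPKM in eMZB_KO libraries, against 11.4, 11.2 and 11.8 in TrB_KO libraries, and 14.4, 14.7 and 13.9 in eMZB_WT libraries, against 8.66, 11.3 and 11.5 in TrB_WT libraries. The eMZB libraries were all higher, by 0.39 in KO and 0.43 in WT cells (log2; limma adjusted p = 0.0128 and 0.00772). Nop14, Utp15 and Rrp12 also rose in both, by 0.42 to 0.57 (log2; Rrp12 in WT cells had adjusted p = 0.0616 with the block), and Utp4 and Wdr75 in KO cells by 0.65 and 0.62. Heatr1, the counterpart of yeast Utp10, averaged 9.37 ± 0.911 FPKM in eMZB_KO and 7.35 ± 1.16 in TrB_KO (SD, n = 3 each) and did not pass (limma adjusted p = 0.0693; 0.0215 with the replicate number as a block). The helicase Ddx10 averaged 5.63 ± 0.327 FPKM in eMZB_KO and 6.92 ± 1.14 in TrB_KO (SD, n = 3 each), the lowest log2 change of the members in KO cells (-0.25). Utp20 had 3.16, 3.13 and 3.08 FPKM in eMZB_WT libraries, against 4.17, 3.18 and 3.81 in TrB_WT libraries. It was the 1 member whose eMZB libraries all lay below the TrB libraries in WT cells (23.3% of all genes), and it was not called (log2 change -0.19).

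Among factors of late small-subunit maturation, Nob1, the endonuclease that makes the final cut of small-subunit RNA, and Tsr1, a GTPase-like protein of the exported particle, rose in KO cells. Tsr1 had 6.57, 6.96 and 7.45 FPKM in eMZB_KO libraries, against 4.44, 4.62 and 5.18 in TrB_KO libraries. The KO groups did not overlap for either gene, with log2 changes of 0.48 (Tsr1, limma adjusted p = 0.0104) and 0.39 (Nob1, 0.0337); the Nob1 call was lost in 4 of 12 fits that left out 1 library (adjusted p up to 0.109). Ltv1, an assembly factor of the same particle, averaged 10.9 ± 0.93 FPKM in eMZB_KO and 9.90 ± 1.51 in TrB_KO (SD, n = 3 each). In eMZB_WT against TrB_WT, 0 of 3 were called.

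Of 14 factors of large-subunit assembly, 6 rose in eMZB_KO against TrB_KO and 5 in eMZB_WT against TrB_WT. Gnl3, nucleostemin, a nucleolar GTPase of proliferating cells, had 11.9, 11.2 and 13.1 FPKM in eMZB_KO libraries and 7.20, 5.80 and 4.96 in TrB_KO libraries. It had 9.23, 10.2 and 9.26 FPKM in eMZB_WT libraries and 5.27, 5.06 and 6.87 in TrB_WT libraries. Every eMZB library was above every TrB library, with a log2 change of 0.91 ± 0.13 in KO (SE; limma adjusted p = 2.82e-04) and 0.66 ± 0.13 in WT cells (0.00278). The helicase Ddx18, the ribosomal RNA methyltransferase Nop2 and Nop16 rose in both, by 0.42 to 0.59 (log2), and Rrp1b and Wdr12 in KO cells by 0.65 and 0.42. Nip7 rose in WT cells by 0.32. Rrs1 did not pass in KO cells (limma adjusted p = 0.0556), but did with the replicate number as a block (0.0470).

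Pes1, Bop1 and Wdr12 form the PeBoW complex of large-subunit processing, and 1 of the 3 was called. Pes1 had 15.8, 14.9 and 15.4 FPKM in eMZB_KO libraries, against 13.7, 14.2 and 15.8 in TrB_KO libraries, and 14.9, 15.0 and 15.7 in eMZB_WT libraries, against 15.5, 12.9 and 15.7 in TrB_WT libraries. Its groups overlapped in both comparisons, with 95% intervals of the log2 change of -0.12 to 0.27 in KO and -0.14 to 0.25 in WT cells. Bop1 averaged 14.6 ± 1.64 FPKM in eMZB_KO and 13.0 ± 1.55 in TrB_KO, and 13.1 ± 0.474 in eMZB_WT and 12.1 ± 0.837 in TrB_WT (SD, n = 3 each), and was not called. Wdr12 had 6.23, 6.79 and 5.64 FPKM in eMZB_KO libraries, against 4.76, 4.03 and 4.37 in TrB_KO libraries, and was called (limma adjusted p = 0.0104; 0.0514 without eMZB_KO replicate 2). In WT cells its log2 change was -0.03.

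Ddx21, a helicase that links transcription with ribosomal RNA synthesis, had 7.68, 6.92 and 7.84 FPKM in eMZB_KO libraries, against 2.89, 4.21 and 4.64 in TrB_KO libraries. It had 5.17, 5.15 and 6.24 FPKM in eMZB_WT libraries, against 4.31, 3.53 and 4.43 in TrB_WT libraries. Neither pair of groups overlapped, and the log2 change was 0.80 ± 0.14 in KO cells (SE; limma adjusted p = 0.00112) and 0.36 ± 0.14 in WT cells (0.0758, not called).

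Of the polyamine and pyrimidine enzymes, Srm and Odc1 held the largest changes of all members beside Myc. Srm, spermidine synthase (chromosome 4, bases 148591513 to 148594619), had 16.5, 21.1 and 20.8 FPKM in eMZB_KO libraries, against 6.49, 5.47 and 7.66 in TrB_KO libraries, and 17.0, 15.9 and 13.1 in eMZB_WT libraries, against 6.80, 7.62 and 3.31 in TrB_WT libraries. Odc1, the rate-limiting ornithine decarboxylase of polyamine synthesis (chromosome 12, bases 17544808 to 17551502), had 17.9, 18.6 and 14.3 FPKM in eMZB_KO libraries, against 7.44, 6.97 and 6.16 in TrB_KO libraries, and 16.0, 17.5 and 11.9 in eMZB_WT libraries, against 6.62, 8.14 and 3.94 in TrB_WT libraries. For both genes all eMZB libraries were above all TrB libraries, and the libraries labelled TrB_WT replicate 3 and eMZB_WT replicate 3 were the lowest of their groups. Srm rose by 1.44 ± 0.22 in KO cells (log2, SE; limma adjusted p = 4.67e-04) and 1.29 ± 0.22 in WT cells (9.94e-04). Odc1 rose by 1.19 ± 0.20 in KO and 1.19 ± 0.20 in WT cells (log2, SE; 9.93e-04 and 9.75e-04). Cad, which carries out the opening steps of pyrimidine synthesis, rose in WT cells by 0.41 (log2; adjusted p = 0.0359), a call that 8 of 12 leave-one-library-out fits lost (0.00302 to 0.0971).

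Beyond Myc, no member passed the test with LSD1 loss. In eMZB_KO against eMZB_WT, 0 of 49 were called by limma (0.335% of all genes were called higher and 0.0711% lower), and 8 had an unadjusted p under 0.05 (16.3%, against 5.39% of all genes), all of them higher; with voom on reads recovered from the FPKM, 1 was called, Myc. The log2 change was above 0 for 45 of 49 members in eMZB cells (48.8% of all genes) and for 33 of 49 in TrB cells (51.5%). The median was 0.17 in eMZB and 0.07 in TrB cells, against -0.00 and 0.01 over all genes. In eMZB cells 14 members did not overlap and were higher in KO (9.13% of all genes), and 1, Wdr74, was lower (9.29%); in TrB cells 4 were higher (Myc, Mybbp1a, Fbl and Nop2; 6.14%) and 1, Wdr75, was lower (4.37%). None of these apart from Myc in TrB cells passed the test.

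**Figure D4:**
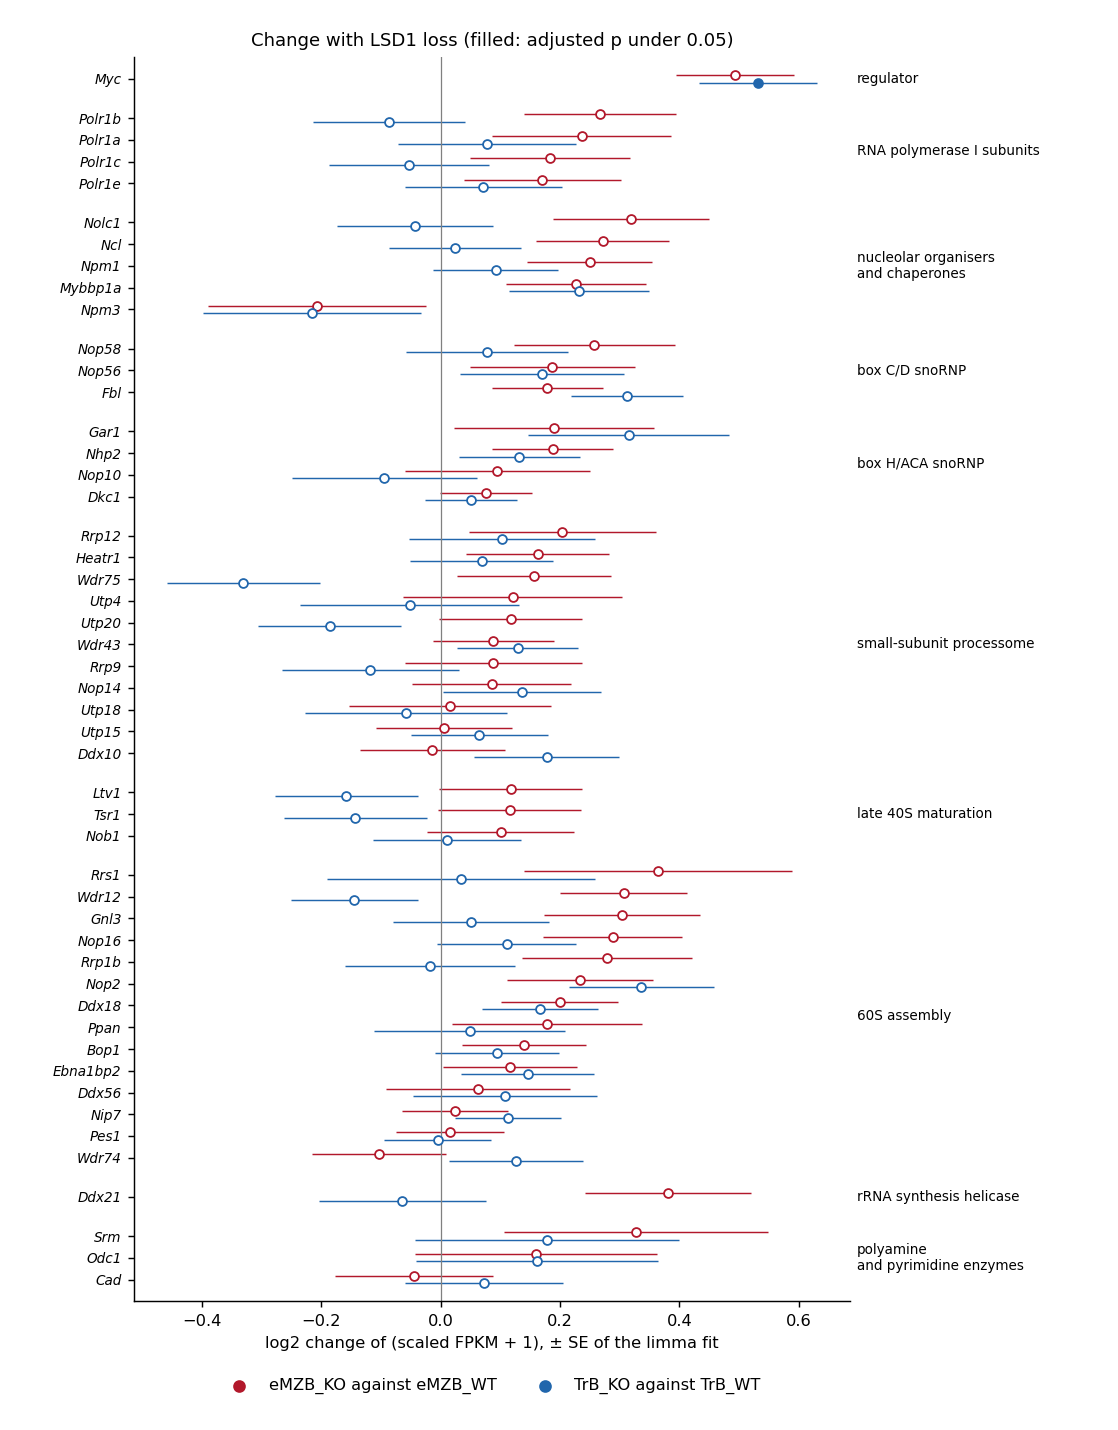
Log2 change of (scaled FPKM + 1) with LSD1 loss for the 49 members, grouped by role, with the standard error of the limma fit (bars); red compares eMZB_KO with eMZB_WT and blue TrB_KO with TrB_WT, and the 1 filled point, Myc in TrB cells, passed adjusted p under 0.05. In eMZB cells 45 of 49 points lie above 0 and in TrB cells 33 of 49.

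Members with the smallest p in eMZB cells after Myc were Wdr12, Ddx21 and Nop16. Wdr12 had 6.23, 6.79 and 5.64 FPKM in eMZB_KO libraries, against 5.01, 4.74 and 4.73 in eMZB_WT libraries (log2 difference 0.31 ± 0.11, SE; limma adjusted p = 0.616). Ddx21 had 7.68, 6.92 and 7.84 FPKM in eMZB_KO libraries, against 5.17, 5.15 and 6.24 in eMZB_WT libraries (0.38 ± 0.14; 0.707). Nop16 had 10.2, 7.24 and 8.78 FPKM in eMZB_KO libraries, against 6.86, 7.00 and 6.87 in eMZB_WT libraries (0.29 ± 0.12; 0.815). Each gene's KO and WT libraries were apart, but none was called. Npm1 differed by 0.25 (95% interval 0.02 to 0.48) and Ncl by 0.27 (0.03 to 0.51) on the log2 scale in the same comparison. By role, the 4 RNA polymerase I subunits had a median log2 difference of 0.21 in eMZB and 0.01 in TrB cells, and the 11 processome members 0.09 and 0.07.

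In TrB cells, Fbl had 17.6, 14.3 and 17.7 FPKM in TrB_KO libraries, against 12.5, 13.8 and 12.9 in TrB_WT libraries, and Nop2 had 9.01, 7.67 and 11.3, against 7.62, 6.91 and 6.81. For both, the lowest TrB_KO library was just above the highest TrB_WT library, and neither passed the test (limma adjusted p = 0.252 and 0.362). Wdr75, a processome subunit, had 4.226, 3.530 and 2.941 FPKM in TrB_KO libraries, against 5.012, 4.232 and 4.896 in TrB_WT libraries (log2 difference -0.33 ± 0.13, SE; adjusted p = 0.396). Its highest TrB_KO and lowest TrB_WT libraries nearly met.

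**Figure D5:**
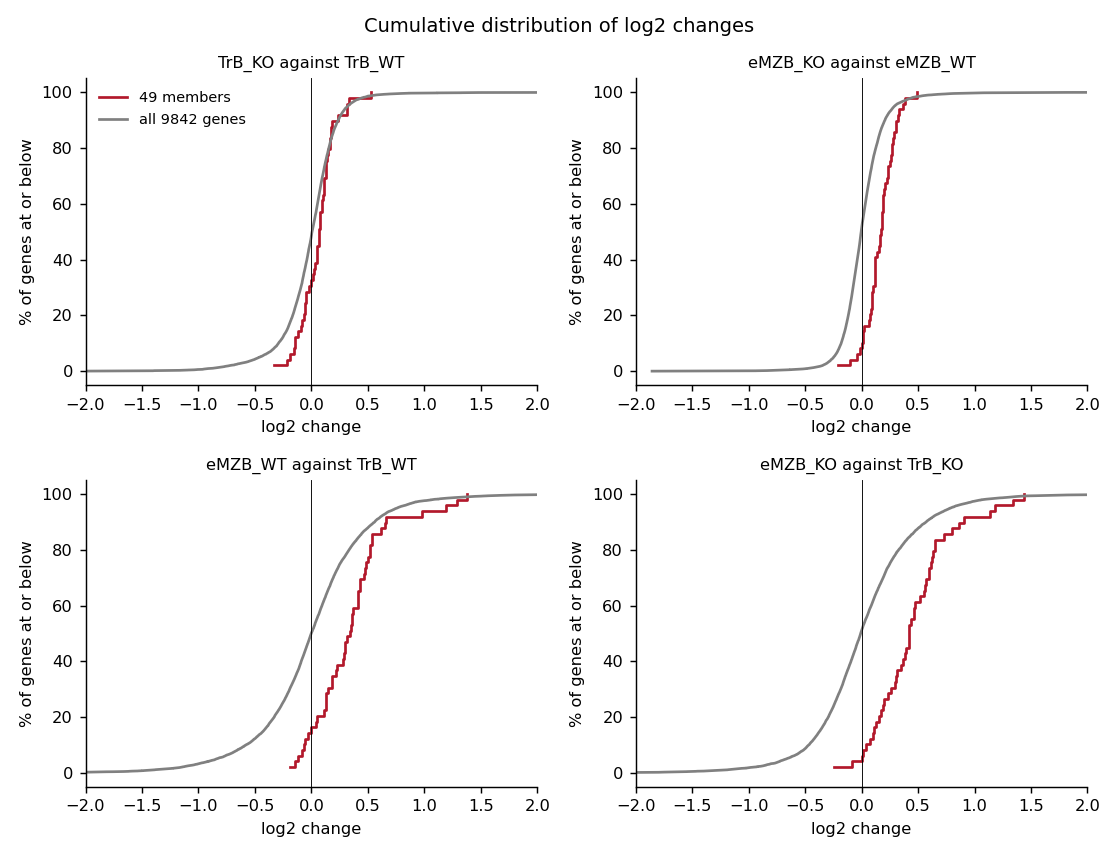
Percentage of genes at or below each log2 change (horizontal axis) in 4 comparisons, for the 49 members (red steps) and for all 9842 genes (grey line). The red steps lie to the right of the grey line over most of their range in eMZB_KO against TrB_KO (medians 0.42 and -0.01), in eMZB_WT against TrB_WT (0.34 and -0.00) and in eMZB_KO against eMZB_WT (0.17 and -0.00), and nearer to it in TrB_KO against TrB_WT (0.07 and 0.01).

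The interaction, the response to LSD1 loss in eMZB minus that in TrB cells, was called by limma for 0 members, and 3 had an unadjusted p under 0.05: Wdr75 (0.49 ± 0.18), Wdr12 (0.45 ± 0.15) and Ddx21 (0.45 ± 0.20; log2, SE; adjusted p 0.668 to 0.709). These 3 are 6.12% of the members, where 6.86% of all genes were under 0.05. Voom on recovered reads called 0 as well. The median over members was 0.09, against -0.01 over all genes; as deposited it was -0.38, above the -0.46 over all genes. The LSD1 and cell type comparisons share libraries, so their values are given side by side only. The 4 group means stood in the order eMZB_KO, eMZB_WT, TrB_KO, TrB_WT from high to low for 24 of 49 members (49%), against 11.7% of all genes, and eMZB_KO was the highest group for 40 of 49 (81.6%), against 26% of all genes.

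Other genes of the same pathways, 158 of 163 listed ones being in the table, went both ways: 28 rose and 9 fell in eMZB_KO against TrB_KO, and 28 rose and 10 fell in eMZB_WT against TrB_WT. The 28 are 17.7% of the 158, against the 14.2% and 14.7% of all genes called higher. Those that fell are 5.7% of the 158 in KO and 6.33% in WT cells, against 13.2% and 12.7% of all genes called lower. By limma and by voom, 0 of the 158 were called in eMZB_KO against eMZB_WT, in TrB_KO against TrB_WT or in the interaction, with 8 (5.06%, against 5.39% of all genes), 13 (8.23%, against 9.91%) and 4 (2.53%, against 6.86%) at an unadjusted p under 0.05. Of MYC's partners and antagonists, 12 of 14 were in the table; Mxd3 and Mxd4, which compete with MYC for its partner MAX, rose in both (Mxd3 by 0.97 in KO and 0.91 in WT cells, Mxd4 by 0.69 and 0.70, log2), and Mxi1, of the same family, fell by 0.56 in KO cells. Of 16 other genes of the RNA polymerase I machinery, Polr2e fell in both, by 0.49 in each (log2), Polr2k fell by 0.49 in WT cells and Polr2f rose by 0.45 in KO cells; these encode subunits shared between polymerases.

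Of 39 other processome genes, 2 rose and 2 fell in KO cells and 6 rose and 2 fell in WT cells, among them Pno1, which rose in both, and Ddx47 and Nol7, which fell in both. Of 45 other large-subunit factors, 7 rose and 1 fell in KO and 8 rose and 1 fell in WT cells. Nop53 had 28.4 ± 4.10 FPKM in eMZB_KO and 20.7 ± 1.49 in TrB_KO (SD, n = 3 each), and Rsl1d1 22.8 ± 0.719 and 15.0 ± 1.50. Of 8 snoRNP assembly factors, 4 rose in KO and 3 in WT cells, including the ATPases Ruvbl1 and Ruvbl2 in both. Of 13 exosome and RNA decay genes, 2 rose and 1 fell in each comparison; the nuclease Dis3 rose and the exonuclease Xrn2 fell in both. Of 25 other polyamine and nucleotide genes, 10 rose and 3 fell in KO and 7 rose and 4 fell in WT cells. Impdh2, the rate-limiting enzyme of guanine nucleotide synthesis, had 18.2 ± 1.18 FPKM in eMZB_KO and 11.8 ± 1.69 in TrB_KO (SD, n = 3 each), and Nme1, a nucleoside diphosphate kinase, 39.0 ± 1.80 and 23.4 ± 5.14.

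Markers of dividing cells moved with the members: 13 of 13 rose in each cell type comparison, with summed levels of 155 to 165 in eMZB_KO, 133 to 145 in eMZB_WT, 87.5 to 95.4 in TrB_KO and 65.4 to 84.9 in TrB_WT libraries. With LSD1 loss, 1 of the 13 was called higher in TrB and 0 in eMZB cells, with median log2 changes of 0.18 and 0.23. The part of the dividing-cell markers in the members' changes was not tested. Marginal zone markers (8 of 8 in KO, 7 of 8 in WT) rose and all 6 transitional markers fell in eMZB against TrB libraries, as the labels have it. Of all genes, 14.2% in KO and 14.7% in WT cells were called higher, and 13.2% and 12.7% lower. The sort itself selected on CD21 (Cr2), CD1d (Cd1d1) and CD93 (Cd93), so these genes are not a separate check of the labels. In TrB_KO against TrB_WT, 2 of the 8 marginal zone markers were also called higher, where 0.386% of all genes were. These were Cd36 (log2 change 0.59, limma adjusted p = 0.0392) and Cr2 (0.55, limma adjusted p = 0.0472). In eMZB_KO against eMZB_WT, 0 of the 8 were called. All 8 general B cell markers were in the table, and 6 of them fell in each cell type comparison (median log2 change over the 8 of -0.67 in KO and -0.63 in WT cells), while Cd22 rose in WT cells by 0.31. Of 6 listed plasma cell markers, Jchain, Sdc1 and Slamf7 fell in eMZB_KO against TrB_KO, and Prdm1 and Xbp1 rose in eMZB_WT against TrB_WT. Of 5 dendritic cell markers only 1, Flt3, was in the table, and Itgax, Zbtb46, Siglech and Ccr9 were not listed. Flt3 had 5.10 ± 0.58 FPKM in eMZB_KO, 0.816 ± 0.205 in eMZB_WT, 0.429 ± 0.0336 in TrB_KO and 0.770 ± 0.0757 in TrB_WT (SD, n = 3 each). Flt3 rose in eMZB_KO against both eMZB_WT and TrB_KO, and was also called in the interaction. Of 9 macrophage and monocyte markers 4 were in the table, summing to 50.1 to 57.8 in eMZB_KO, 12.9 to 22.8 in eMZB_WT, 50.6 to 63.9 in TrB_KO and 12.2 to 14.1 in TrB_WT libraries; 1 of the 4, Ly6c2, carried these sums and was the 1 called with LSD1 loss in each cell type. Without Ly6c2 the sums were 4.20 to 5.39 in eMZB_KO, 2.46 to 3.33 in eMZB_WT, 4.27 to 5.07 in TrB_KO and 4.999 to 6.49 in TrB_WT libraries. The defining genes Lyz2, Csf1r, Fcgr1, C1qa and C1qb were not listed, and the sort had removed F4/80+ and CD11b+ cells. The part of these markers in the members' values was not tested. No T cell, neutrophil, NK cell or stromal marker was listed.

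Member levels rested on 7 to 4179 reads per gene and library, and Npm3, Gar1, Rrs1 and Srm had under 50 reads in at least 1 library; such read numbers bound counting error alone. The library kit does not mark strand, and 9 members overlap a listed protein-coding gene, among them Nop56 with Idh3b, Dkc1 with Mpp1, Nhp2 with Rmnd5b, Gnl3 with Glt8d1 and Mybbp1a with Spns2, so reads of the shared stretch cannot be told apart. Pseudogenes named after Npm3 and Fbl in the RefSeq gene table were not listed, and how reads matching several copies were counted is not given in the sources used here. Every gene of the table, the 49 members included, was at 1 FPKM or more in 3 libraries or more.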

How the data were processed

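RNA of 12 mouse B cell libraries was measured. Per the labels' protocols, RNA of 2000 sorted cells per library was amplified (SMART-Seq v4) and tagmented (Nextera XT), which does not mark strand. STAR and mm10 are named per the submitters' processing notes; versions, counting program, annotation and gene lengths are not stated. Deposited by the authors were FPKM for 9842 genes with Entrez IDs, of which 9833 matched a symbol; 0 value columns were left unused.

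From these values, FPKM was divided by median-of-ratios factors (0.619 to 2.165) and fitted as log2(value + 1) with limma 3.58.1 (R 4.3.3; lmFit and eBayes with trend; 12 libraries, 4 group means, 8 residual degrees of freedom). A gene was called at an adjusted p under 0.05 (Benjamini-Hochberg, over all 9842 genes), with no fold threshold; SE and 95% intervals are limma's. The scripts were tested on simulated data. Whole reads were recovered from the FPKM for all 9842 genes (100% of values whole within 0.02 reads) and used for depth and, with voom, as an alternative. Gene lengths were searched until values came out whole, so that share does not check the recovery. Of 197 small RNA genes, whose reference lengths also served to set the library totals, 177 came out at the reference length. Replicates differed by 2.55 to 18.6 times counting noise, so none was a repeat sequencing of another library. Whether replicates came from separate animals cannot be told from this. Promoters were searched on both strands. Python 3.11.15 with pandas 2.3.3 and matplotlib 3.10.9 made summaries and figures.

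The members, the other pathway lists and the scale were chosen with earlier results of these data known. The text names Myc in every comparison, up to 12 called members per direction, at least 2 members per role by level, up to 3 genes per other pathway list, and up to 6 promoters by E-box count; values of other members beside these were chosen after they were seen. Replicate numbers 1 to 3 recur in each group without a stated meaning. Deviations from group means correlated at 0.161, 0.106 and 0.292 between same-numbered eMZB_KO and TrB_KO libraries, all over 0.1, so these numbers may pair the samples. In the other comparisons tested the correlations were not all over 0.1. The fit behind the calls did not pair libraries, and the replicate block, which does, was an alternative. Alternatives were the deposited scale, quantile normalization, a pseudocount of 0.1, a mean of at least 5, voom, the groups compared alone, the replicate block, and leaving out libraries.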

Additional observations from a re-analysis of the deposited data

How the results depend on the processing

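Called members of TrB_KO against TrB_WT numbered 1 (Myc) and became 0 on the deposited scale (with or without TrB_KO replicate 3), with voom, with the compared groups alone, with the replicate block and without both wild-type libraries low in Kdm1a; leaving out 1 library gave 0 to 1. In eMZB_KO against eMZB_WT, 0 became 1 (Myc) with quantile normalization and voom, and leaving out 1 library gave 0 throughout. In eMZB_WT against TrB_WT, 22 became 14 without both wild-type libraries and 49 on the deposited scale without TrB_KO replicate 3, an alternative chosen after seeing the data; leaving out 1 library gave 15 (TrB_WT replicate 2 or eMZB_WT replicate 2) to 25 (TrB_KO replicate 3). In eMZB_KO against TrB_KO, 28 became 4 on the deposited scale and 49 there without TrB_KO replicate 3; leaving out 1 library gave 21 (eMZB_KO replicate 2) to 32 (TrB_KO replicate 3). The replicate block gave 29 in eMZB_KO against TrB_KO, where Mybbp1a lost and Heatr1 and Rrs1 gained a call, and 19 in eMZB_WT against TrB_WT, where Mybbp1a, Nop58 and Rrp12 lost theirs; it changed no other call beyond that of Myc in TrB cells. The interaction had 0 calls in every alternative. These counts of members stand here without the share of all genes called in the same alternative. The deposited scale shifts all genes together, and values turned sign there through that shift: the members' interaction median (-0.377), Wdr75 in TrB cells (0.186), and the interactions of Wdr12 (-0.009) and Ddx21 (-0.017). Relative to the median of all genes they were 0.08, -0.34, 0.45 and 0.44, with the sign reported. The Myc interaction turned with quantile normalization (0.014), without both wild-type libraries (0.044), without eMZB_KO replicate 2 (0.032), without eMZB_WT replicate 3 (0.017; -0.111 to 0.032 over all libraries left out in turn), and on the deposited scale without TrB_KO replicate 3 (0.02). The causes of the other changes were not tested. The filter on a mean of at least 5 left 40 members. On the deposited scale the medians of all genes were 0.52 for LSD1 loss in TrB and 0.06 in eMZB cells, 0.67 for cell type in WT and 0.23 in KO cells, and -0.46 for the interaction. Depth limits the least abundant members most: Npm3 had as few as 7 reads.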
